A study of Mus musculus with 16 samples.

Results

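Microglia genes in the medial prefrontal cortex (mPFC) of Arid1b-mutant mice were examined as a set of 31 listed marker genes, taken from a list of microglia markers and matched by gene identifier to the deposited expression table. All 31 were among the 18424 genes of the table, so none was dropped. RNA sequencing had been performed on the mPFC of 16 male C57BL/6N mice at postnatal day 120, in 4 groups of 4 mice. WT-Veh and WT-Flx mice were wild type, and HT-Veh and HT-Flx mice were heterozygous for a CRISPR-made truncating mutation in exon 5 of Arid1b, whose protein is part of the SWI/SNF complex that remodels chromatin, present in all cells of the body from conception. In the Flx groups the dams drank fluoxetine hydrochloride, a serotonin reuptake inhibitor, dissolved at 0.1 mg/ml in their water from postnatal day 3 to 21, so that pups were exposed through milk. The water was sweetened with saccharin at 0.2%, and the dams of the Veh groups drank it without the drug, and all offspring drank plain water after weaning. The labels number the mice within a group but do not say which were littermates, so p-values measure the spread between these samples.

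Microglia are the resident macrophages of the brain. They arise from yolk sac progenitors, depend on the transcription factor PU.1 (Spi1) and on the growth factor receptor Csf1r for their existence, and survey the tissue with fine processes guided by receptors for purines and for the neuronal chemokine fractalkine. They secrete complement C1q, which tags synapses and debris, and clear tagged material through phagocytic receptors and lysosomes. In a bulk sample, a lower level of these genes can come from fewer microglia or from less RNA per microglial cell, and the 2 cannot be told apart here.

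The deposited values are normalized read counts, that is, estimated reads per gene divided by a normalization factor of the authors, and the sequencing depth behind them is unknown. Arid1b itself (ENSMUSG00000069729) was 1787, 2453, 2831 and 2401 in WT-Veh replicates 1 to 4 and 2005, 1753, 1802 and 1619 in HT-Veh replicates 1 to 4. With fluoxetine it was 1902 to 2433 in WT and 1545 to 1671 in HT mice, with no overlap, whereas WT-Veh replicate 1 lay inside the HT-Veh range. Over both treatments the log2 change of Arid1b was -0.39 ± 0.080 (SE; adjusted p 0.0969, limma). Some libraries stood apart by markers of the olfactory bulb, the structure that lies in front of the mPFC. A bulb score, the mean log2(value + 1) of 10 bulb markers, was 9.65 in WT-Veh replicate 1, 7.48, 8.05 and 9.27 in WT-Flx replicates 1, 2 and 4, 7.86 in HT-Veh replicate 4, and 4.54 to 5.55 in the other 11 mice. Results below are therefore also given with this score as a covariate or without these 5 mice where that changed them. Arid1b itself had a slope of -0.078 ± 0.024 log2 units per unit of score within groups (SE; adjusted p 0.0373, limma). The part of bulb tissue in the Arid1b values was not tested.

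The levels of the set were set beside those of markers of other immune cells. All 31 genes had a value above 0 in all 16 mice, and the lowest single value was 53.1, for Spi1 in HT-Flx replicate 4. Summed over the 31 genes, the normalized count ran from 18665 to 24301 per mouse. The sum over 9 markers of border macrophages, the macrophages of the meninges and vessels, was 731 to 1187 per mouse. These sums and those below cover different numbers of genes and were not divided by gene length. A larger sum over the 31 genes therefore does not test the label of the set. The mean log2 level per gene allows for gene number but not for length. Its group means were 8.81 to 8.93 for the 31 genes and 5.38 to 5.45 for the border macrophage markers. Of 10 markers of monocytes and neutrophils, 5 were listed in the table, and their sum was 10.4 to 195. Ltf and S100a9, which neutrophils make in bulk, were listed at 0 in some mice. Of 10 lymphocyte markers, 4 were listed, and their sum was 302 to 693 per mouse. Among them, Cd79b, of the B cell receptor, was at 0 in some mice. Several of the 31 genes, Ptprc, Itgam, Cd53, Laptm5, Fcer1g, Fcgr3 and Lair1 among them, are shared with other leukocytes. The level of Sall1, a further member, rose with the olfactory bulb score within groups, as described further on.

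The levels of the 31 genes were compared with each other only after division by the length of their annotated exons, as normalized counts per kilobase (mean ± SD, n = 16 mice). Highest were Ctss, a lysosomal cysteine protease, at 1411 ± 158 per kilobase, and the C1q chains C1qa at 1059 ± 146 and C1qb at 1018 ± 117. C1qc, which encodes the remaining chain of the C1q molecule, was at 516 ± 62.7. Before division the chains were close, with mean normalized counts of 1102, 1107 and 996 for C1qa, C1qb and C1qc. The annotated exons of C1qc cover 1931 bases, against 1040 and 1088 for C1qa and C1qb. This length joins the exons of all annotated transcripts and can exceed the RNA expressed, which lowers the value per kilobase. For Ptprc the length is 18313 bases, so places in this ranking depend on the annotation. P2ry12, the purine receptor that steers microglial processes, was at 610.4 ± 86.1, above Csf1r at 480.4 ± 109, Tyrobp, the signalling adaptor of Trem2, at 447 ± 65.4, and the fractalkine receptor Cx3cr1 at 307 ± 34.7. The differences between C1qa and C1qb, and between C1qc and Csf1r, were smaller than the SDs over mice. At the low end were Ptprc, the leukocyte phosphatase CD45, at 5.04 to 9.42 per kilobase, the transcription factors Irf8 at 18.1 ± 2.26 and Spi1 at 33.6 ± 9.41, the prostaglandin D synthase Hpgds at 43.6 ± 7.92 and the inhibitory receptor Lair1 at 44.1 ± 7.46.

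The other members lay between these. Among membrane proteins, Laptm5, a lysosomal membrane protein of leukocytes, was at 280.2 ± 46.3 per kilobase, the Fc receptor-like protein Fcrls at 261 ± 38.9 and the microglial membrane protein Tmem119 at 258 ± 30.9. Gpr34, a receptor for lysophosphatidylserine, was at 196 ± 21.5, Selplg, a selectin ligand, at 195 ± 26.9, the ADP receptor P2ry13 at 162 ± 20.4 and the sialic acid-binding lectin Siglech at 115 ± 9.16. The Fc receptor Fcgr3 was at 197 ± 21.1, its signalling chain Fcer1g at 229 ± 41.1 and the lipid-sensing receptor Trem2 at 65.0 ± 7.28. Itgam, the CD11b chain of complement receptor 3, was at 149.6 ± 22.4, the lysosomal glycoprotein Cd68 at 160.1 ± 25.5, the tetraspanin Cd53 at 114 ± 13.2, the actin-binding protein Aif1 (also called Iba1) at 81.8 ± 15.1 and Ly86, a partner of a Toll-like receptor homologue, at 81.5 ± 11.4. Sall1, a transcription factor of microglial identity, was at 184 ± 77.2, the secreted protein Olfml3 at 93.1 ± 10.8 and the lipid phosphatase Inpp5d, which dampens receptor signalling, at 61.2 ± 9.64.

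Regions before the start sites are shown for 4 members. C1qb and C1qc were chosen as neighbours on chromosome 4, where the genes of all the C1q chains lie side by side (C1qb 136880129 to 136886187, C1qc 136889804 to 136893065 and C1qa 136895917 to 136898803, minus strand, GRCm38). Fcrls and Itgam were chosen because they are among the 4 members with the smallest p in HT-Veh versus WT-Veh, described further on. Each is the 250 bases before the RefSeq start site in GRCm38, written along the gene's own strand. The annotated gene spans of Fcrls (to 87263738) and C1qc (to 136893065) begin upstream of that start site, so they reach into their windows. The regions are chr4:136886201-136886450 for C1qb, chr4:136892915-136893164 for C1qc and chr3:87263525-87263774 for Fcrls, on the minus strand, and chr7:128062390-128062639 for Itgam on the plus strand. Capitals mark GAGGAAG on either strand, the core of the sites that PU.1 binds.
C1qb: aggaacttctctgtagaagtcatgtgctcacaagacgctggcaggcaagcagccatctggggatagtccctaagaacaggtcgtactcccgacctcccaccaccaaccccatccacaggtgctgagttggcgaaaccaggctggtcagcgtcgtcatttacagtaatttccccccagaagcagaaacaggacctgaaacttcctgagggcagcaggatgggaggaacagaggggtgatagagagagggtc
C1qc: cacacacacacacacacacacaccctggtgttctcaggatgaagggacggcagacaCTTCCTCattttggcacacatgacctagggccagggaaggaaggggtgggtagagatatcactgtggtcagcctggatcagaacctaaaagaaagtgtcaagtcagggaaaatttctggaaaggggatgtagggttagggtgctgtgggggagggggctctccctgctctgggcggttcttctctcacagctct
Fcrls: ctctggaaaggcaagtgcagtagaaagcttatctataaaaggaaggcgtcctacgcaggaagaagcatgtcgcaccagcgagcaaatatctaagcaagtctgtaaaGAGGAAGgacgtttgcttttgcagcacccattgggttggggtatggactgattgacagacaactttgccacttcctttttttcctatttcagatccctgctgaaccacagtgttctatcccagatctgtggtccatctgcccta
Itgam: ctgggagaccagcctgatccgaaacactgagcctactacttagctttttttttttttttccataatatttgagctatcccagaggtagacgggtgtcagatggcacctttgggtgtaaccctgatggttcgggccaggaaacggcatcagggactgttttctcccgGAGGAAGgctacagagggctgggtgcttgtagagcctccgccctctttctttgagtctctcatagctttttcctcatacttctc
The letters stand on the gene's own strand in Fcrls and Itgam, on the opposite strand in C1qc, and are not in the C1qb window. In Fcrls they lie inside the annotated gene span, and in C1qc and Itgam before it. The RefSeq table held a start site for 24 of the 31 members, with none for Spi1, Selplg, Tmem119, Csf1r, Gpr34, Tyrobp or C1qa. Of those 24, 10 had the letters within 250 bases in at least 1 listed promoter. By promoter this was 11 of 29 (37.9%), against 3486 of 32851 promoters of all genes (10.6%). These matches describe letters and not bound sites.

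The 31 genes varied little between mice. For 26 of the 31, the highest of the 16 values was less than 2 times the lowest. The median coefficient of variation was 14.0%, against 13.1% for 10542 genes of like level. The steadiest member was Siglech, at 333 to 442 with a coefficient of variation of 7.96%, and the least steady was Sall1, at 676 to 2098 with 41.9%. The other 4 that spanned 2-fold or more were Spi1 (53.1 to 157), Csf1r (1718 to 3992), Hpgds (163 to 371) and Fcer1g (127 to 263). Single mice stood out. HT-Veh replicate 3 held the highest value of 7 members, Ctss, Itgam, Laptm5, Fcrls, Siglech, Cx3cr1 and Hpgds. WT-Veh replicate 1, which had the highest bulb score, held the lowest value of 8 members, Csf1r, P2ry12, P2ry13, Cx3cr1, Itgam, Laptm5, Lair1 and Hpgds, and the highest value of 4, C1qb, C1qc, Tyrobp and Olfml3.

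**Figure D1:**
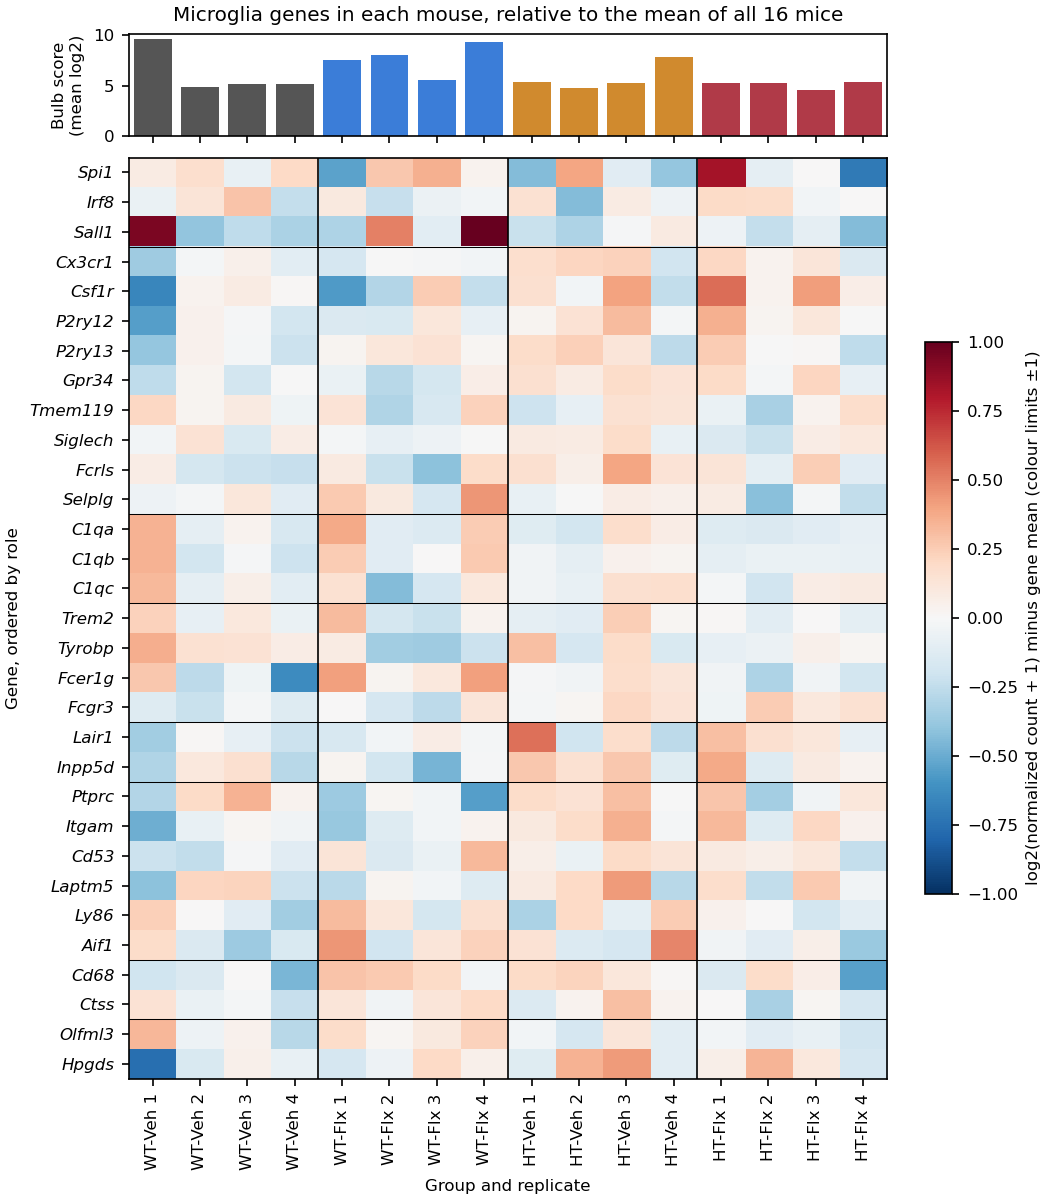
Heat map of the 31 microglia genes (rows, by role) in the 16 mice (columns, by group and replicate), coloured by log2(normalized count + 1) minus the mean of the gene over all mice, with the olfactory bulb score of each mouse as bars above. Most cells are pale, WT-Veh replicate 1 combines dark blue cells for Csf1r, P2ry12 and Hpgds with a dark red cell for Sall1, and no group of 4 columns is of a single colour.

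As a single measure, the mean log2(value + 1) over the 31 genes was taken for each mouse. It was 8.83, 8.84, 8.88 and 8.72 in WT-Veh replicates 1 to 4, and 8.91, 8.89, 9.05 and 8.86 in HT-Veh replicates 1 to 4. With fluoxetine it was 8.89, 8.80, 8.83 and 8.98 in WT-Flx and 8.99, 8.79, 8.93 and 8.76 in HT-Flx replicates 1 to 4. The lowest mouse was WT-Veh replicate 4 and the highest HT-Veh replicate 3, and every group overlapped with every other. As mean ± SD (n = 4), the score was 8.81 ± 0.068 in WT-Veh against 8.93 ± 0.085 in HT-Veh mice, and 8.87 ± 0.078 in WT-Flx against 8.87 ± 0.11 in HT-Flx mice. The largest of the 4 pairwise differences was HT-Veh minus WT-Veh, at 0.11, which is somewhat more than the SD within either group. HT-Flx minus HT-Veh was -0.061, less than either SD. No test was made of this score, since its members were chosen with results of these data known.

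**Figure D2:**
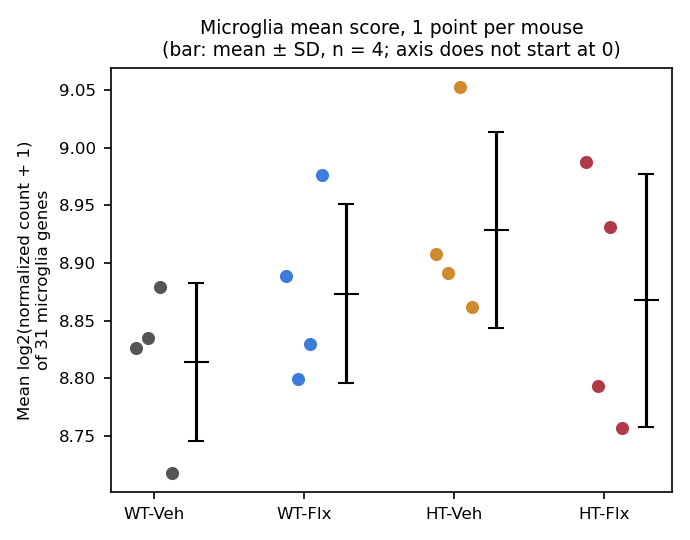
Mean log2(normalized count + 1) of the 31 microglia genes, with 1 point per mouse and the mean ± SD (n = 4) of each group beside the points; the vertical axis does not start at 0. The HT-Veh mean of 8.93 is the highest and the WT-Veh mean of 8.81 the lowest, and the points of all groups overlap.

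HT-Veh mice were compared with WT-Veh mice to ask whether loss of 1 copy of Arid1b goes with a difference in microglia genes of the adult mPFC without drug. No microglia gene passed the test. The 31 genes leaned towards higher values in HT-Veh. Fcrls, Cd68, Gpr34 and Itgam had the smallest p. In limma fits over 16832 genes with Benjamini-Hochberg adjustment, 0 of 31 members had an adjusted p under 0.05, where 0.0178% of all genes did. At an unadjusted p under 0.05, 6 members were higher in HT-Veh and 0 lower, a share of 31 that compares with 2.63% of all genes higher and 2.26% lower. The fitted change was above 0 for 23 members, against 51.8% of all genes, and its median over the members was 0.15 on the log2 scale, against 0.0062 over all genes. The members were measured in the same mice and are not independent of each other. The count of 6 became 2 without HT-Veh replicate 1 or replicate 3, and 3 without HT-Veh replicate 2 or WT-Veh replicate 4.

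By role, 8 of 9 surface receptors and homeostatic proteins were higher in HT-Veh, with a median log2 change of 0.21, Tmem119 being the exception. All 6 pan-leukocyte and myeloid proteins were higher as well, with a median of 0.18. Both lysosomal genes by role, Cd68 and Ctss, had higher means, with a median of 0.22. So had both inhibitors, Lair1 and Inpp5d, with a median of 0.22. Without the bulb-rich WT-Veh replicate 1 the median of the surface receptors was 0.13. The lineage transcription factors Spi1 and Irf8 had changes of -0.23 and -0.090. When single mice were left out, the change of Spi1 ran from -0.40 to -0.13. Irf8 changed sign, to 0.033, without HT-Veh replicate 2. Sall1 had a change of -0.11, whose sign rested on WT-Veh replicate 1, since without that mouse it was 0.21. The C1q chains had changes between -0.046 and 0.0096, and between 0.057 and 0.12 without that mouse. None of these role groups held a member past the adjusted threshold.

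Cd68, a marker of phagocytic lysosomes, had normalized counts of 173, 179.5, 199 and 144 in WT-Veh replicates 1 to 4 and 227, 231, 215 and 200.5 in HT-Veh replicates 1 to 4. The groups did not overlap, although the highest WT-Veh and the lowest HT-Veh mouse lay next to each other. The log2 change was 0.34 ± 0.13 (SE; limma adjusted p 0.922). Gpr34 was 341, 413, 357 and 405 in WT-Veh and 454, 429.5, 462 and 447 in HT-Veh, again without overlap, and its log2 change was 0.24 ± 0.093 (limma adjusted p 0.922). These were the 2 members whose groups did not overlap, both higher in HT-Veh, where 2.06% of all genes did so in that direction.

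Fcrls was 633, 532, 520.0 and 513 in WT-Veh and 672, 628, 793 and 662 in HT-Veh. Only the bulb-rich WT-Veh replicate 1 reached into the HT-Veh range, just above its lowest mouse. The log2 change of Fcrls was 0.33 ± 0.10 (limma adjusted p 0.909), and 0.41 without WT-Veh replicate 1 and HT-Veh replicate 4. Itgam was 530.1, 708, 754 and 727 in WT-Veh and 798, 847, 953 and 734 in HT-Veh, with WT-Veh replicate 1 the lowest and HT-Veh replicate 3 the highest mouse. Its log2 change was 0.30 ± 0.13 (limma adjusted p 0.922), and 0.18 without WT-Veh replicate 1. With the bulb score as a covariate, 8 members had an unadjusted p under 0.05 and the median change was 0.12. Without the 2 bulb-rich mice the count was 6 and the median 0.16.

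**Figure D3:**
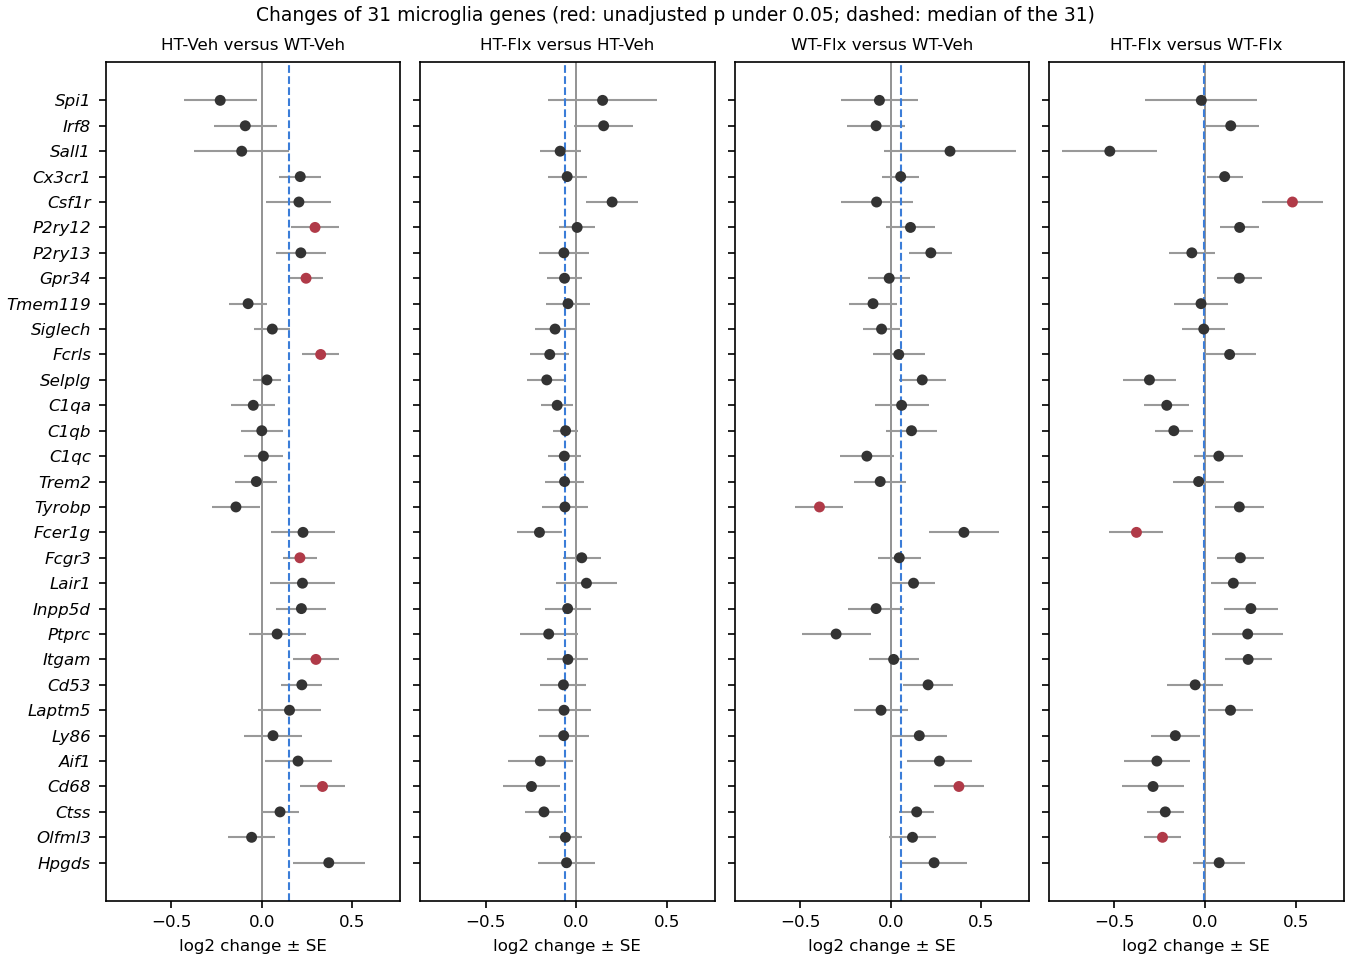
Log2 change ± SE of each of the 31 microglia genes in the 4 pairwise comparisons, with members at an unadjusted p under 0.05 in red and the median of the members as a dashed line. The dashed line sits at 0.15 in HT-Veh versus WT-Veh, where 6 points are red, and at -0.064 in HT-Flx versus HT-Veh, where 0 points are red; no member passed an adjusted p of 0.05 in any panel.

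HT-Flx mice were compared with HT-Veh mice to ask how early fluoxetine bears on microglia genes of adult HT mice. No microglia gene passed the test. Most had slightly lower means in HT-Flx, the C1q chains, the lysosomal genes and all pan-leukocyte proteins among them. In limma fits over 16814 genes, 0 of 31 members had an adjusted p under 0.05, and so did 0% of all genes. At an unadjusted p under 0.05 the count of members was 0 as well, against 3.07% of all genes, and it was at most 1 when any of the mice was left out. The fitted change was below 0 for 25 members, against 48.8% of all genes, and the median over the members was -0.064, against 0.0030 over all genes. This comparison shares the HT-Veh mice with the former one, so the lean of the members to opposite sides in the 2 comparisons is not independent.

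Ctss had the smallest p of the members, at 1732, 1953, 2348 and 1953 in HT-Veh and 1907, 1521, 1931 and 1693 in HT-Flx replicates 1 to 4. HT-Veh replicate 3 was the highest and HT-Flx replicate 2 the lowest, and the other mice mixed. The log2 change was -0.18 ± 0.10 (limma adjusted p 1.00). Fcer1g, the signalling chain of Fc receptors, had a log2 change of -0.20 ± 0.12, Cd68 one of -0.25 ± 0.16 and Selplg one of -0.16 ± 0.11 (limma adjusted p 1.00 for each). Single mice moved these values, to -0.097 for Ctss without HT-Veh replicate 3 and -0.11 without HT-Flx replicate 2, to -0.10 for Cd68 without HT-Flx replicate 4 and to -0.074 for Selplg without HT-Flx replicate 2. Cd68 ranged from 200.5 to 231 in HT-Veh and from 136 to 225 in HT-Flx, the lowest value being that of HT-Flx replicate 4. The 6 members with higher means in HT-Flx were Csf1r, Irf8, Spi1, Lair1, Fcgr3 and P2ry12. Spi1 had the widest spread there, at 157, 82.1, 87.7 and 53.1 in HT-Flx replicates 1 to 4.

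WT-Flx mice were compared with WT-Veh mice to ask for the effect of the drug in wild-type mice. No microglia gene passed the test. Members went both ways, with Cd68 and Fcer1g higher and Tyrobp lower in WT-Flx. In limma fits over 16833 genes, 0 of 31 members had an adjusted p under 0.05, and so did 0% of all genes. At an unadjusted p under 0.05, 1 member was higher and 1 lower, against 2.20% and 2.00% of all genes. The fitted change was above 0 for 19 members, against 49.8% of all genes, with a median of 0.055. Bulb-rich mice made up 3 of the 4 WT-Flx and 1 of the 4 WT-Veh mice. The 2 members at an unadjusted p under 0.05 became 5 with the bulb score as a covariate or without WT-Veh replicate 1, and 1 without WT-Veh replicate 4 or WT-Flx replicate 2.

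Tyrobp, the adaptor through which Trem2 signals, was 380.5, 329, 326 and 310.4 in WT-Veh and 313, 232, 230.0 and 254 in WT-Flx replicates 1 to 4. Only WT-Flx replicate 1 reached into the WT-Veh range. The log2 change was -0.39 ± 0.13 (SE; limma adjusted p 1.00). Trem2 itself had close means, at 331 ± 34.5 in WT-Veh and 321 ± 57.6 in WT-Flx (SD, n = 4). Cd68 was 242, 238, 227 and 195 in WT-Flx, where only replicate 4 lay within the WT-Veh range of 144 to 199, and its log2 change was 0.38 ± 0.14 (limma adjusted p 1.00). Fcer1g was 238, 164, 191 and 127 in WT-Veh and 263, 201, 212 and 262 in WT-Flx. The 2 highest WT-Flx mice and the highest WT-Veh mouse were all bulb-rich. The log2 change of Fcer1g was 0.40 ± 0.19 (limma adjusted p 1.00) and became 0.26 with the bulb score as a covariate and 0.25 without WT-Veh replicate 4. P2ry13 had a log2 change of 0.22 ± 0.12 (limma adjusted p 1.00), and 0.14 without WT-Veh replicate 1.

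**Figure D4:**
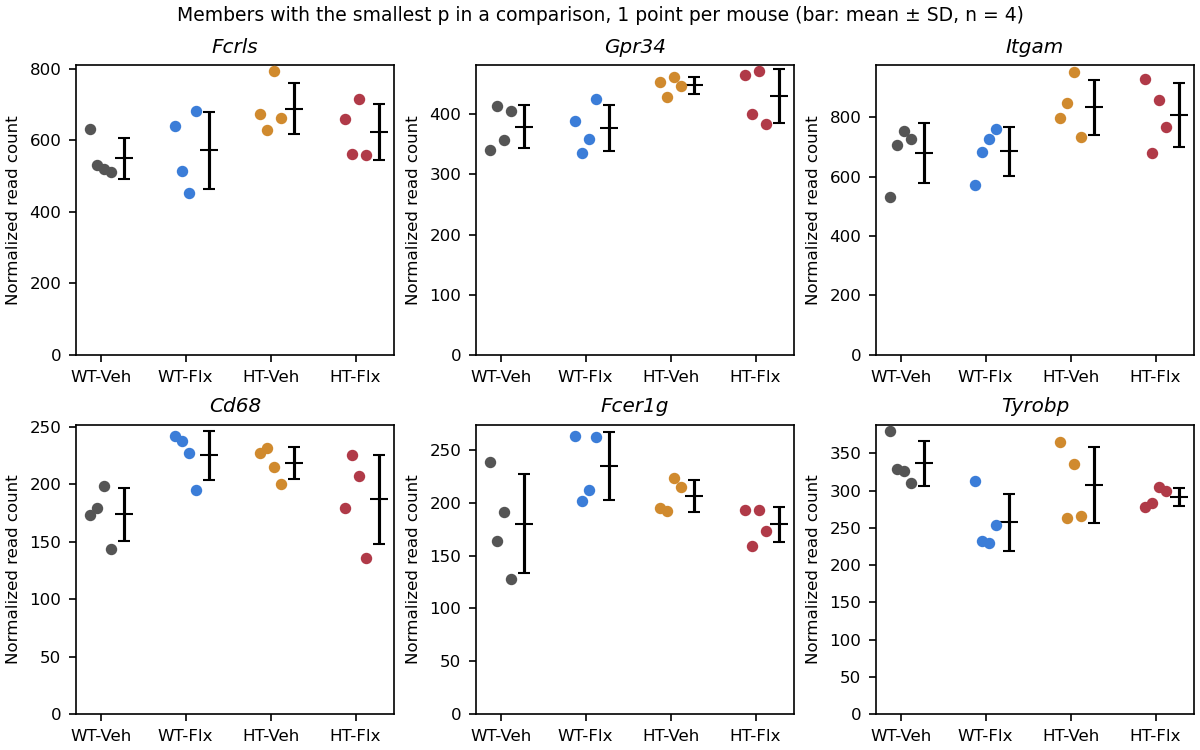
Normalized read counts of Fcrls, Gpr34, Itgam, Cd68, Fcer1g and Tyrobp, with 1 point per mouse and the mean ± SD (n = 4) of each group beside the points. The 4 HT-Veh mice lie above all 4 WT-Veh mice for Gpr34 and Cd68, the HT-Flx mice lie below all WT-Flx mice for Fcer1g, and the WT-Flx mice are low for Tyrobp except replicate 1, at 313.

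HT-Flx mice were compared with WT-Flx mice to ask for the genotype difference after fluoxetine. No microglia gene passed the test. Csf1r, on whose signalling microglia depend, was higher in HT-Flx, and Fcer1g, Olfml3 and Ctss were lower. The bulb score separated these groups too, at 7.59 ± 1.55 in WT-Flx and 5.09 ± 0.37 in HT-Flx (mean ± SD, n = 4), and its part in the results was not tested beyond the covariate fits given here. In limma fits over 16788 genes, 0 of 31 members had an adjusted p under 0.05, against 0.0417% of all genes. At an unadjusted p under 0.05, 1 member was higher and 2 lower, against 5.58% and 4.87% of all genes, so the members reached it no more often than genes at large. Their count of 3 became 1 with the bulb score as a covariate or without replicate 4 of either group, and 5 and 6 without WT-Flx replicates 2 and 3. The fitted change was above 0 for 15 members, against 51.6% of all genes, with a median of -0.0075.

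Csf1r was 1827, 2208, 3224 and 2297 in WT-Flx and 3992, 2778, 3612 and 2837 in HT-Flx replicates 1 to 4. The WT-Flx mouse that reached the HT-Flx range was replicate 3, the one without a high bulb score. The log2 change was 0.48 ± 0.17 (SE; limma adjusted p 0.381) and became 0.12 with the bulb score as a covariate. Fcer1g was 201 to 263 in WT-Flx and 159 to 193 in HT-Flx, without overlap. Its log2 change was -0.38 ± 0.15 (limma adjusted p 0.423), and -0.26 with the covariate. Olfml3, a secreted matrix protein, was 647, 577, 612 and 669.5 in WT-Flx and 558, 528, 542 and 498 in HT-Flx, also without overlap, with a log2 change of -0.24 ± 0.10 (limma adjusted p 0.457). These 2 were the members whose groups did not overlap, both lower in HT-Flx, where 3.13% of all genes did so in that direction. Ctss had a log2 change of -0.22 ± 0.10 (limma adjusted p 0.482).

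Over both treatments, HT mice were compared with WT mice in a fit to all 16 samples with treatment as a covariate. No microglia gene passed the test, but the surface receptors Gpr34, P2ry12, Csf1r, Fcrls and Cx3cr1, the complement receptor chain Itgam, the Fc receptor Fcgr3 and the phosphatase Inpp5d were higher in HT at an unadjusted p under 0.05. These 8 members, with 0 lower, compare with 6.42% of 17567 genes higher and 5.44% lower. By the adjusted p of limma 0 of 31 members were called, against 0.0398% of all genes. The log2 change was 0.22 ± 0.072 for Gpr34 (limma adjusted p 0.319), 0.27 ± 0.090 for Itgam (0.320), 0.24 ± 0.085 for P2ry12 (0.344) and 0.20 ± 0.073 for Fcgr3 (0.349). Over all 31 members the fitted change was above 0 for 19, against 51.1% of all genes, and the median was 0.026. That median ran from 0.014 to 0.065 when single mice were left out, and was 0.097 without the 5 bulb-rich mice. With the bulb score as a covariate, the count at an unadjusted p under 0.05 was 3 in place of 8, and P2ry12 had a change of 0.14, Itgam one of 0.19 and Gpr34 one of 0.20.

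P2ry12, which marks homeostatic microglia, shows the spread behind these values. It was 1049.7, 1587, 1525 and 1355 in WT-Veh replicates 1 to 4 and 1389, 1382, 1669 and 1457 in WT-Flx. In HT mice it was 1569.5, 1702, 1920.2 and 1518 with vehicle and 1971, 1568, 1666 and 1536 with fluoxetine. The single lowest mouse was the bulb-rich WT-Veh replicate 1, and the remaining WT and HT mice overlapped. Fcgr3 ranged from 290.4 to 335 in WT-Veh against 335 to 392 in HT-Veh mice, and from 283 to 369 in WT-Flx against 329.5 to 406 in HT-Flx mice, with the 3 highest mice all HT.

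Flx mice were compared with Veh mice over both genotypes, again in all 16 samples. In this limma fit 0 of 31 members had an adjusted p under 0.05, and so did 0% of all genes, while 1 member, Tyrobp, was lower at an unadjusted p under 0.05, against 1.74% of all genes in that direction. That count was 0 without WT-Flx replicate 2, 3 or 4 or without HT-Veh replicate 1, and 2 without HT-Flx replicate 1. Tyrobp had a log2 change of -0.23 ± 0.097 (limma adjusted p 1.00). Ptprc had one of -0.23 ± 0.12, Siglech -0.083 ± 0.070 and C1qc -0.098 ± 0.088 (each limma adjusted p 1.00). The change of C1qc was -0.043 without WT-Flx replicate 2. Without the 5 bulb-rich mice C1qc had a change of -0.056 and Siglech one of -0.14. The fitted change was above 0 for 18 members, against 50.9% of all genes, and the median was 0.028. That median ran from -0.058 to 0.035 over all alternatives, and from -0.014 to 0.035 when single mice were left out.

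Whether fluoxetine acted differently in the genotypes was tested by the interaction, the Flx change in HT minus the Flx change in WT. No microglia gene passed this test either. The members with the smallest p, the lysosomal genes Cd68 and Ctss, Fcer1g and Selplg, all had negative interactions, with higher means under Flx in WT and lower means under Flx in HT. Of 31 members, 0 had a limma adjusted p under 0.05, and so did 0% of all genes. At an unadjusted p under 0.05, 3 members had a negative and 0 a positive interaction, against 2.29% and 2.00% of all genes, and without WT-Veh replicate 1 the count was 6. The interaction was below 0 for 23 members, against 49.7% of all genes, with a median of -0.10, which ran from -0.16 to -0.042 when single mice were left out.

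Cd68 had means of 174 ± 22.7 in WT-Veh against 225 ± 21.3 in WT-Flx mice, and of 219 ± 13.9 in HT-Veh against 187 ± 39.0 in HT-Flx mice (SD, n = 4). WT-Veh was thus the lowest and WT-Flx the highest group, and HT-Flx had the widest spread. The log2 interaction of Cd68 was -0.62 ± 0.21 (SE; limma adjusted p 0.998). Fcer1g had group means of 180.3 ± 46.7, 235 ± 32.3, 206 ± 14.9 and 179 ± 16.4 in the same order, and a log2 interaction of -0.61 ± 0.23 (limma adjusted p 0.998). Ctss had a log2 interaction of -0.32 ± 0.15 and Selplg one of -0.34 ± 0.17 (limma adjusted p 0.998 for both). With the bulb score as a covariate the interaction of Cd68 was -0.69 and that of Fcer1g -0.42.

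The relation of the microglia genes to the bulb score was examined because the bulb-rich mice were spread unevenly over the groups. A fit to all 16 mice, with a mean for each group and a slope on the score, was added after the data had been seen. Here 5 of 31 members had a limma adjusted p under 0.05, against 12.7% of all genes, so that the share among the members was close to that among genes at large. Of these, 2 had a positive slope and 3 a negative one, against 5.13% and 7.59% of all genes. Sall1, which besides its role in microglia is known from olfactory bulb development, had a slope of 0.25 ± 0.046 log2 units per unit of score (limma adjusted p 0.00189). C1qb had one of 0.073 ± 0.023 (limma adjusted p 0.0444), and of 0.037 without WT-Veh replicate 1, with a limma adjusted p of 0.0126 to 0.757 over the alternatives. The slope was -0.15 ± 0.035 for Csf1r (limma adjusted p 0.0114), -0.088 ± 0.024 for P2ry12 (0.0248) and -0.12 ± 0.036 for Hpgds (0.0395). The receptors Csf1r and P2ry12 and the C1q chain C1qb thus had slopes of opposite sign, and the median over all 31 was 0.014, and -0.0077 without WT-Flx replicate 4. These calls rest on few mice. Without WT-Veh replicate 1 the count of members called was 0, without WT-Veh replicates 2 and 3 it was 2 and 3, without HT-Veh replicate 2 it was 3, and without WT-Flx replicates 1, 2 and 3 it was 8, 9 and 1. The part of bulb tissue in these slopes was not tested.

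Sall1 was 1754, 694, 767 and 733 in WT-Veh replicates 1 to 4 and 736, 1293, 849 and 2098 in WT-Flx replicates 1 to 4, so that WT-Veh replicate 1 and WT-Flx replicates 2 and 4, all bulb-rich, were its 3 highest mice. In HT mice it ran from 736 to 970.4 with vehicle and from 676 to 882 with fluoxetine. Csf1r was lowest in WT-Veh replicate 1, at 1718, and next in WT-Flx replicate 1, at 1827, and the 5 bulb-rich mice were its 5 lowest. C1qb reached 1398, 1317 and 1313 in 3 of the bulb-rich mice, its 3 highest values.

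**Figure D5:**
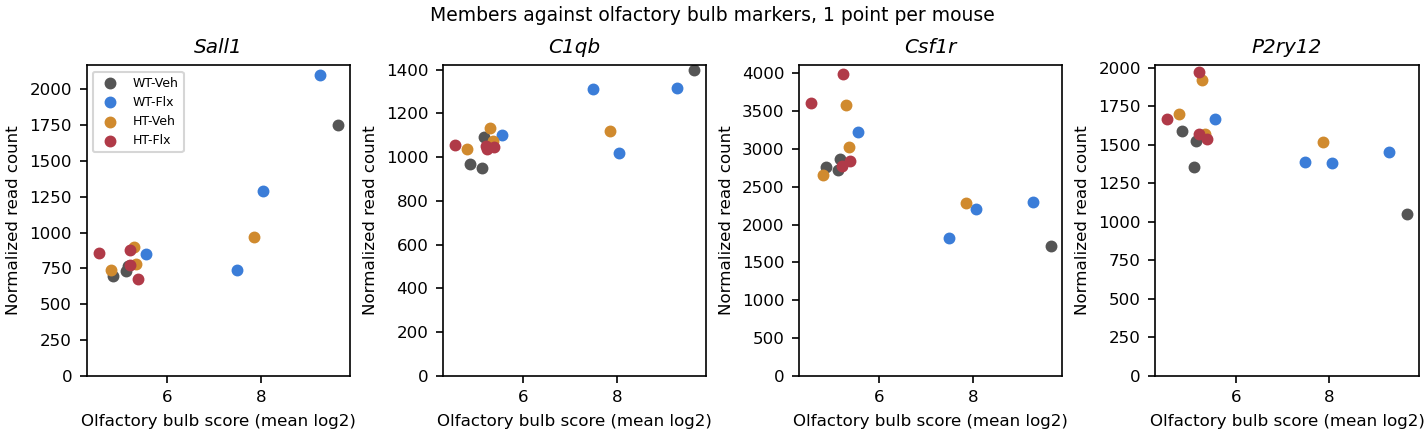
Normalized read counts of Sall1, C1qb, Csf1r and P2ry12 against the olfactory bulb score (mean log2(value + 1) of 10 bulb markers), with 1 point per mouse coloured by group. The 5 mice at scores of 7.48 and above include the 3 highest Sall1 values and all 5 lowest Csf1r values; 3 of them are WT-Flx mice.

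Genes that act with the members were examined as further lists. The first held 15 ligands and partners of microglial receptors, such as the chemokine Cx3cl1 and the Csf1r ligands Csf1 and Il34. Of these, 13 were higher in HT-Veh than in WT-Veh, against 51.8% of all genes, with a median log2 change of 0.12. None passed an adjusted p of 0.05 in limma in any of the 7 comparisons of groups, and none an unadjusted p under 0.05 in HT-Veh versus WT-Veh. The smallest p in that comparison was that of Tgfb2, at 0.25 ± 0.15 (limma adjusted p 0.922). Over both treatments Sirpa, the receptor of the "don't eat me" protein CD47, had a log2 change of 0.12 ± 0.050 in HT (limma adjusted p 0.391). The interaction of Cx3cl1 was 0.23 ± 0.11 (limma adjusted p 0.998).

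Of the complement pathway outside C1q, 17 of 18 genes were listed and 15 tested. None passed the adjusted threshold of limma in any comparison of groups. In HT-Veh versus WT-Veh, 2 of 15 were higher at an unadjusted p under 0.05, against 2.63% of all genes. C4b was among them, which encodes the component cleaved next after C1q is activated. C4b had a mean of 496 ± 125 in WT-Veh and 697 ± 81.9 in HT-Veh (SD, n = 4), and a log2 change of 0.51 ± 0.16 (limma adjusted p 0.904). Over both treatments, 3 of 15 were higher in HT at an unadjusted p under 0.05, against 6.42% of all genes, led by C1s1, a protease of the C1 complex, at 0.66 ± 0.19 (limma adjusted p 0.269). In HT-Flx versus HT-Veh the median of the list was 0.10, against -0.064 for the microglia genes.

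Of 24 genes known as markers of activated microglia, 20 were listed, and none passed the adjusted threshold of limma in any comparison of groups. The summed count of the 20 was 47274 to 66932 per mouse, above the 18665 to 24301 of the 31 microglia genes. Which cells these reads came from was not tested, so changes in this list cannot be assigned to microglia. Lpl, a lipoprotein lipase, was 0.45 ± 0.14 log2 units higher in HT-Veh than in WT-Veh (limma adjusted p 0.909). Cd74, the invariant chain of MHC class II, was -0.43 ± 0.17 in HT-Flx versus HT-Veh (limma adjusted p 1.00). Spp1, encoding osteopontin, was -0.74 ± 0.20 in HT-Flx relative to WT-Flx mice (limma adjusted p 0.315). The groups did not overlap for Spp1, as for 3.13% of all genes in that direction. With the bulb score, 4 of 19 genes of this list tested had a positive slope past the adjusted threshold and 0 a negative one, against 5.13% and 7.59% of all genes. Spp1 was among the 4, with a slope of 0.42 ± 0.060 (limma adjusted p 0.000328). The bulb score was 7.59 ± 1.55 in WT-Flx and 5.09 ± 0.37 in HT-Flx mice (SD, n = 4). Its part in the Spp1 change was not tested.

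A further list of 26 microglia genes, the phagocytic receptor gene Mertk among them, was described beside the 31. In HT-Veh versus WT-Veh, 23 of 26 were higher, against 51.8% of all genes, with a median log2 change of 0.071. At an unadjusted p under 0.05, 1 of 26 was higher, against 2.63% of all genes. This was Cd33, a sialic acid-binding inhibitory receptor, at 0.46 ± 0.20 (limma adjusted p 0.922). In HT-Flx versus HT-Veh, 7 of 26 were higher and all the rest were lower, where 48.8% of all genes were lower. Adgrg1, an adhesion receptor, had the smallest p there, with a log2 change of -0.27 ± 0.079 (limma adjusted p 1.00). Both named genes had slopes on the bulb score past the adjusted threshold of limma. The slope was 0.11 ± 0.026 for Adgrg1 (adjusted p 0.0129) and -0.14 ± 0.037 for Cd33 (0.0236). The part of bulb tissue in their changes was not tested. None of the 26 passed the adjusted threshold in a comparison of groups.

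Markers of other cells moved beside the members as follows in HT-Veh versus WT-Veh. Of all genes, 51.8% were higher. Of 8 border macrophage genes tested, 6 were higher, with a median log2 change of 0.12. Of 10 astrocyte markers 7 were higher (0.059), and of 12 markers of endothelial and mural cells 9 (0.094). Of 10 cortical neuron markers 6 were higher (0.042), and of 12 oligodendrocyte lineage markers 1 (-0.12). The mean log2(value + 1) of the cortical neuron markers was nevertheless lower in HT-Veh, at 12.94 ± 0.028, than in WT-Veh, at 12.99 ± 0.036 (SD, n = 4). The summed border macrophage count was 913 to 1048 in WT-Veh and 905 to 1112 in HT-Veh, with overlap. The monocyte and neutrophil markers were lower in HT-Veh, with a mean log2(value + 1) of 3.24 ± 0.75 in WT-Veh and 2.04 ± 0.53 in HT-Veh (SD, n = 4). Their sums, 29.3 to 195 in WT-Veh and 10.4 to 38.1 in HT-Veh, overlapped, and 0 of the 5 genes passed the filter on low values in this comparison. Over both treatments S100a9 had a log2 change of -1.09 ± 0.50 in HT (limma adjusted p 0.414). Of 2 lymphocyte markers tested, 1 was higher (median -0.024), and the sum over all 4 listed was 380.2 to 530.0 in WT-Veh and 382 to 593 in HT-Veh. None of the genes tested had an adjusted p under 0.05, and their part in the lean of the microglia genes was not tested.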

How the data were processed

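RNA sequencing of the mPFC of 16 male mice at postnatal day 120 was analysed from the gene table that the authors deposited. The authors estimated reads with Salmon 1.1.0 (GRCm38 transcriptome, GC bias correction), summed transcripts by gene (tximport) and scaled samples in DESeq2 1.30.1 (versions per the labels), so the deposited signal is a normalized read count. Values were fractional, and at most 34.6% of low values per sample were whole multiples of a common step (tolerance 0.05), so reads were not recovered, the depth per sample is unknown, and no counting interval is given.

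Groups came from sample titles. Values were tested as log2(value + 1), which understates changes of low genes, with limma 3.58.1 in R 4.3.3 (lmFit, eBayes with trend), over genes of at least 10 in at least 4 samples of the fit, two-sided, with Benjamini-Hochberg adjustment over all genes tested. All 31 members passed this filter in every fit. Pairwise fits held the 8 samples compared. Fits over both treatments, both genotypes or the interaction held all 16. The members, gene lists and tests were chosen with earlier results of these data known. Every member is given with its level, and changes for the 4 members with the smallest p per comparison. Of other lists, the gene with the smallest p is given where its comparison is described, apart from a gene not reported here, and 18411 genes had a symbol. Promoters came from a RefSeq table of GRCm38. Scripts were tested on simulated data. Alternatives were other pseudocounts, filters, scalings, sample weights, a replicate block, a bulb covariate, and leaving out bulb-rich or single mice. The slope on the bulb score was added after seeing the data.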

Additional observations from a re-analysis of the deposited data

Results flagged for a closer look

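In 128 groups of 4 values, 1 for each member and for the mean score in each of the 4 groups, 4 had a single mouse far from the other 3 by Dixon's criterion, which chance meets in about 1 of 20 groups. Sall1 was 1754 in WT-Veh replicate 1 and 694 to 767 in the other WT-Veh mice. Csf1r was 1718 in the same mouse and 2725 to 2861 in the others. This mouse had the highest olfactory bulb score, 9.65, and the part of bulb tissue in both values was not tested. Cx3cr1 was 1203 in HT-Veh replicate 4, the HT-Veh mouse with a bulb score of 7.86, and 1539 to 1609 in the other HT-Veh mice. Cd53 was 168 in HT-Flx replicate 4, which was not among the 5 bulb-rich mice (bulb score 5.38), and 206 to 215 in the other HT-Flx mice.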

How the results depend on the processing

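The slope on the olfactory bulb score was the only analysis in which members were called, and there no called member changed sign. In the 7 comparisons of groups, 0 of 31 members had a limma adjusted p under 0.05 under each alternative run. These were pseudocounts of 0.1 and 8, a mean of at least 100 or no filter, upper quartile or quantile scaling, a fit over all mice, quality weights, the replicate block, the bulb score as a covariate, and leaving out bulb-rich mice or each mouse in turn. The median change of the members stayed between 0.080 and 0.18 in HT-Veh versus WT-Veh, between -0.10 and -0.030 in HT-Flx versus HT-Veh, between 0.0076 and 0.090 in WT-Flx versus WT-Veh and between -0.030 and 0.071 in HT-Flx versus WT-Flx, where its sign changed, as did that of the mean score (-0.046 to 0.031). The median also changed sign for fluoxetine over both genotypes (-0.058 to 0.035) and for the slope on the bulb score (-0.0077 to 0.020), and ran from 0.014 to 0.097 for genotype over both treatments and from -0.16 to -0.042 for the interaction. Members at an unadjusted p under 0.05 numbered 2 to 8 in HT-Veh versus WT-Veh, 0 to 1 in HT-Flx versus HT-Veh, 1 to 5 in WT-Flx versus WT-Veh, 1 to 6 in HT-Flx versus WT-Flx, 3 to 9 for genotype over both treatments, 0 to 2 for fluoxetine over both genotypes and 2 to 6 for the interaction. Genes called over the whole table numbered 3 (0 to 19 over the alternatives) in HT-Veh versus WT-Veh, 0 (0 to 12) in WT-Flx versus WT-Veh, 7 (0 to 23) in HT-Flx versus WT-Flx and 7 (1 to 23) for genotype over both treatments. In the slope on the bulb score, the 5 members called became 8 among genes with a mean of at least 100, and 0 to 9 when each mouse was left out. They numbered 0 without WT-Veh replicate 1, 2 without WT-Veh replicate 2, 3 without WT-Veh replicate 3, 8 without WT-Flx replicate 1, 9 without WT-Flx replicate 2, 1 without WT-Flx replicate 3 and 3 without HT-Veh replicate 2. Genes called in the slope numbered 2234, and 152 without WT-Veh replicate 1. Leaving out bulb-rich mice was not run for the comparisons with WT-Flx or for the interaction, since WT-Flx would keep 1 mouse.

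The replicate numbers were checked for pairing. Correlations of same-numbered samples' deviations from their group means ran from -0.23 to 0.31, and not every pair was above 0.1. In none of the 4 pairwise comparisons did all 8 samples correlate best with their own number (2 to 4 of 8 did). The numbers were therefore not treated as pairs in the main fits. Since the labels do not name litters or batches, this check cannot exclude ones shared by some of the mice. With the replicate block, the members called in the slope on the bulb score numbered 1 and the genes called 862, genes called in HT-Veh versus WT-Veh numbered 0, and 0 members were called in the 7 comparisons of groups.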
